A study of Mus musculus with 2 samples.

Results

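Dense clusters of CTCF sites were examined in lung tissue of newborn mice (strain B6NCrl, postnatal, age 0 days), profiled by chromatin immunoprecipitation and sequencing (ChIP-seq) with an antibody to CTCF. There was 1 group, of 2 replicates, with no genetic change or treatment labelled. The labels tie both to 1 biosample and 1 donor. A spread between replicates may therefore be technical. Sites were the peaks of the authors' optimal list, thresholded by the irreproducible discovery rate (IDR), on chromosomes 1 to 19 and X. Their summits were put in genome order, consecutive summits at most 5000 bp apart were joined into chains, and the sites in chains of 4 or more summits were the members. Of 64732 sites, 6407 were members, and they formed 1362 chains. The rule used positions only and no signal.

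CTCF recognises a long and directional DNA motif through its array of zinc fingers. It halts cohesin as that ring extrudes loops of chromatin, and pairs of sites whose motifs face each other often anchor a loop. Rows of neighbouring CTCF sites are known from domain boundaries, from imprinting control regions and from the edges of large gene loci, and CTCF is also found at many promoters without its motif.

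The longest chain lay in the introns of Firre, and its sequences are shown first because most of its sites aligned with one another in 2 groups. Firre, a long non-coding RNA gene of the X chromosome that is transcribed from the minus strand (GRCm38, the assembly that mm10 names, chrX:50555744-50635321), is known for an RNA that stays at its own locus and for repeats that bind CTCF. Its chain had 20 sites over 32446 bp (chrX:50590876-50623322), and a second chain of 7 sites ended 6985 bp before it (chrX:50566548-50583891). The second chain was named after its values were seen. Together they held 27 of the 52 chain sites of the X chromosome, which had 8 chains in all. Windows of 301 bp around the 27 summits were aligned in pairs on both strands, and pairs with a local alignment score of at least 80 (1 for a match, -1 for a mismatch, -2 to open and -1 to extend a gap) were joined. A group of 15 sites and a group of 8 sites came out, and the other 4 sites joined none. The best motif match was on the minus strand at all 15 sites of the larger group and on the plus strand at all 8 of the smaller. Capitals mark the best match to a 20 bp CTCF motif matrix, read on its own strand, in 4 sites of the larger group and 4 of the smaller:
larger group, site 4, chrX:50597291-50597330, minus strand: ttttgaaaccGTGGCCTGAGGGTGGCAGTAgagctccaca
larger group, site 7, chrX:50602532-50602571, minus strand: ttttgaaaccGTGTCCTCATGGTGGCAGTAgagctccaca
larger group, site 13, chrX:50611860-50611899, minus strand: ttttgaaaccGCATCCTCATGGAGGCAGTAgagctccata
larger group, site 17, chrX:50617153-50617192, minus strand: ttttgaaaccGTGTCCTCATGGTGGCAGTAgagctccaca
smaller group, site 6, chrX:50600417-50600456, plus strand: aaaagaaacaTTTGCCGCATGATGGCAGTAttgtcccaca
smaller group, site 8, chrX:50603045-50603084, plus strand: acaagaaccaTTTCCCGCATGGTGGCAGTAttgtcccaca
smaller group, site 14, chrX:50612372-50612411, plus strand: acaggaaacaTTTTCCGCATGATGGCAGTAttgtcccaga
smaller group, site 16, chrX:50615032-50615071, plus strand: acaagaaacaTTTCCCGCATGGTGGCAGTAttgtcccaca

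The matrix was made from 28220 sites outside the chains, all with the CTCF core defined below. A site was called motif-bearing by its best score within 50 bp of the summit. That score had to be above that of 99% of windows 1000 bp away from sites that stand alone (11.5, as log2 odds). By that measure 2 of the 20 sites of the Firre chain carried the motif, with scores from -6.29 to 13.9 and a median of 7.37. None had the CTCF core with at most 1 mismatch, the 12 bp centre of the motif. All 20 sites had a peak in both replicates and all 20 were in the authors' stricter conservative list. The strand of the best match alternated at 15 of 19 neighbouring pairs. In the 8 pairs of neighbours under 1000 bp apart, 509 to 966 bp, the minus strand match always came before the plus strand match. Most of these matches were under the threshold. Sites of a repeat group also shared a strand, so the strands are not independent calls. The best aligned pair was 97.9% identical, over 288 columns. The labels do not say how reads from such near-identical copies were placed, so their separate signals are uncertain.

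The peak signal is the authors' value for each peak, in units whose scaling is not given, and the values below are those of each replicate's own highest peak within 100 bp of the summit. In bulk tissue, a site bound in few cells and a site bound weakly in many cannot be told apart. No site dominated the Firre chain. Its signals had a lowest value of 17.9, a median of 70.2 and a highest value of 119 in replicate 1, and 16.7, 61.5 and 112 in replicate 2. Its strongest site held 8.84% of the summed pooled signal, the smallest such share of any chain. The median over all 1362 chains was 46.5%. Such a share is lower when more sites divide the sum. The Firre chain had 20 sites, against a median of 4, so its low share does not show unusual evenness. Its strongest site exceeded its weakest by 6.09 times in pooled signal, between the quartiles over all chains, 5.59 and 15.6. Sites of the larger repeat group over both Firre chains had a median of 77.7 in replicate 1 and 69.9 in replicate 2, and those of the smaller group 59.7 and 48.1. The ranges overlapped, at 27.2 to 126 for the larger and 17.9 to 95.5 for the smaller group in replicate 1.

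The chain beyond the immunoglobulin heavy chain locus is shown next, since its motif matches pointed one way. It had 10 sites within 8289 bp (chr12:113216122-113224411, GRCm38), between genes, 30419 bp from Igha, the constant region gene of immunoglobulin A, and 26599 bp from Tmem121 on the other side. Of its 10 sites, 8 carried the motif, all 8 on the plus strand. The 12 bp core was found at 6 sites, 5 on the plus strand and 1 on the minus strand. Matches of 5 sites are shown, with site 9 last because its score of 6.09 was under the threshold:
site 4, chr12:113220039-113220078, plus strand: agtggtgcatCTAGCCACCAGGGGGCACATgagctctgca
site 6, chr12:113221394-113221433, plus strand: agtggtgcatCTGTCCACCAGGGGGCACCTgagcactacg
site 3, chr12:113218072-113218111, plus strand: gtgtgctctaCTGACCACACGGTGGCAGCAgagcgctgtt
site 7, chr12:113222202-113222241, plus strand: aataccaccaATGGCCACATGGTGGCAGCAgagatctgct
site 9, chr12:113222939-113222978, plus strand: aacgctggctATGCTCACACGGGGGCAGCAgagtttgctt

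In genome order the 10 sites had signals of 153, 115, 199.9, 128, 109, 80.4, 106, 58.3, 91.9 and 35.8 in replicate 1. Replicate 2 gave 139.8, 101, 194, 109, 103, 69.4, 136, 36.1, 83.7 and 19.6. The third site was the strongest and the last the weakest in both replicates. The medians of 108 in replicate 1 and 102 in replicate 2 were above the upper quartile over all chains, 84.0 in replicate 1 and 77.3 in replicate 2. All 10 sites were in the conservative list.

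The chain beside H19 is shown because most of its sites scored low against the matrix. Its highest pooled signal, 208.6, was below the median of 315 for the strongest site of a chain. H19 is a maternally expressed non-coding RNA and Igf2 a paternally expressed growth factor, and CTCF is known to bind the unmethylated maternal copy of the control region between them. The chain had 5 sites in 2742 bp (chr7:142579265-142582007), all intergenic, and it lay 1122 bp upstream of the start of H19, which is on the minus strand (chr7:142575529-142578143). No site had the 12 bp core and 1 of 5 passed the matrix score, the weak site 1. The printed windows of sites 2, 4 and 5 hold the best match of each:
site 1, score 13.1, chr7:142579250-142579289, minus strand: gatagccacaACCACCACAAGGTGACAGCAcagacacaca
site 2, score 6.87, chr7:142580297-142580336, minus strand: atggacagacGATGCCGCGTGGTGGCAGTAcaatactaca
site 4, score -0.30, chr7:142581778-142581817, minus strand: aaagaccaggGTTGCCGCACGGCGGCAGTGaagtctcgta
site 5, score 7.21, chr7:142582022-142582061, minus strand: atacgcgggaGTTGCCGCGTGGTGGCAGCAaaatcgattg

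From the H19 side on, the 5 sites had signals of 26.1, 86.0, 103, 56.7 and 9.77 in replicate 1 and 14.4, 81.5, 104, 86.5 and 23.9 in replicate 2. The middle 3 sites were above the 2 outer ones in both replicates. Sites 4 and 5 lay 199 bp apart, so a single binding event near both cannot be told apart from 2. With sites within 500 bp of a stronger site dropped, 3 sites of this chain were left.

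A chain between Fbln2, which encodes the matrix protein fibulin 2, and Wnt7a, a Wnt ligand, had the highest median pooled signal of any chain. It had 4 sites in 9050 bp (chr6:91277771-91286821), 5231 bp from Fbln2 and 77160 bp from Wnt7a. All 4 had the core and the motif, on the minus, minus, plus and plus strands, so that the inner pair pointed away from each other:
site 1, score 21.3, chr6:91277753-91277792, minus strand: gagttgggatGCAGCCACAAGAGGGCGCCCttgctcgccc
site 2, score 18.6, chr6:91281389-91281428, minus strand: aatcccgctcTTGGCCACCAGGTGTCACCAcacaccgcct
site 3, score 16.8, chr6:91285590-91285629, plus strand: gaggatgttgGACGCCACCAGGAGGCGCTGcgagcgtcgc
site 4, score 15.4, chr6:91286834-91286873, plus strand: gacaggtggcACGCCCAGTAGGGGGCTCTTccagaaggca

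Its sites had signals of 170.3, 253, 191 and 234 in replicate 1 and 151, 219.6, 194 and 214 in replicate 2. Its strongest site exceeded its weakest by 1.47 times in pooled signal, against a median of 10.003 times over all chains.

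**Figure D1:**
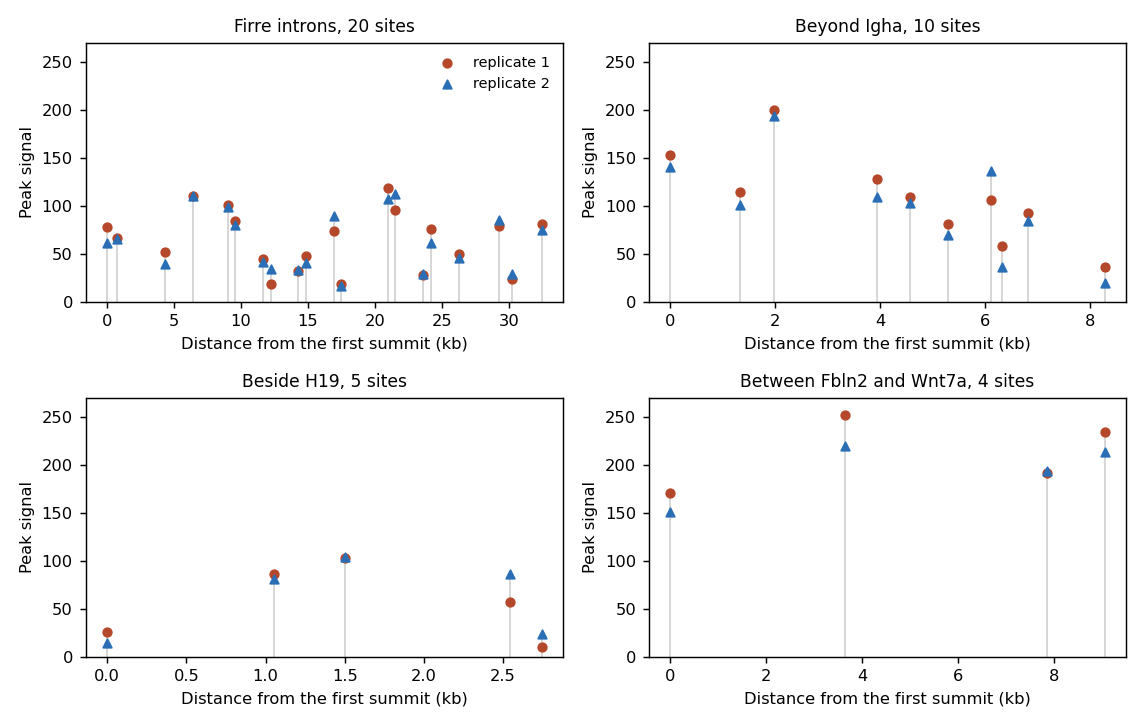
Peak signal in each replicate (y axis, authors' units, circles replicate 1, triangles replicate 2) against distance from the first summit of the chain in kb (x axis), for 4 chains. Sites of the Firre chain lay between 16.7 and 119 along 32446 bp, and all 4 sites between Fbln2 and Wnt7a were at 151 or above in both replicates.

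Most chains were short. There were 820 chains of 4 sites, 322 of 5, 120 of 6, 54 of 7, 24 of 8, 11 of 9 and 5 of 10. Beyond 10 sites there were 3 chains of 11 and 1 each of 12, 13 and 20. Chain length, from the first to the last summit, had a median of 7731.5 bp and ran from 1050 to 32446 bp. Neighbouring summits in a chain were 199 to 4997 bp apart with a median of 1979 bp, and 7.83% of the 5045 gaps were at most 500 bp. At the threshold, 2429 chains had 3 sites and missed the rule, with a median length of 4424 bp and a median of chain medians of 80.7 in pooled signal. The 820 chains of 4 that met it had a median length of 6745 bp and a median of 90.2.

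Chains were uneven among chromosomes. Chromosome 11 had 147 chains, which held 14.3% of its sites, and chromosome 7 had 123 chains with 13.4%. The X chromosome had the lowest share, 3.47%, and its 8.75 sites per Mb were also the lowest density of sites, against 40.01 per Mb on chromosome 11, the highest. The part of site density in the chain shares was not tested.

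**Figure D2:**
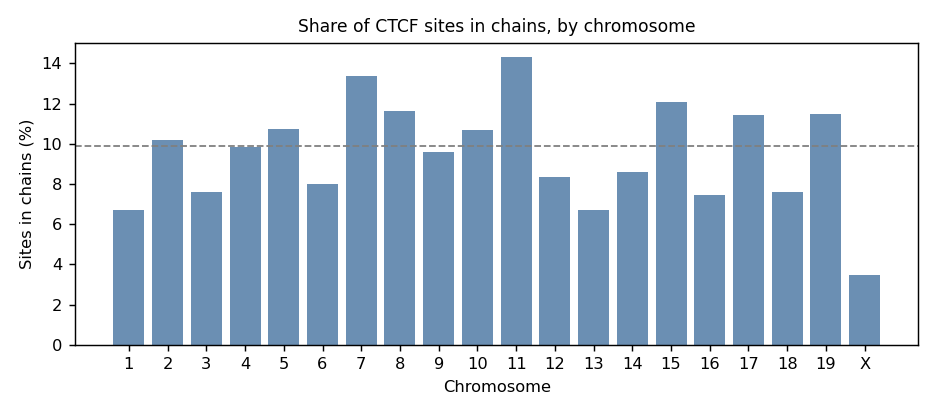
Percent of the CTCF sites of each chromosome that lay in chains of 4 or more (bars). The dashed line is the share over all chromosomes, 6407 of 64732 sites. The bars run from 3.47% on X to 14.3% on chromosome 11.

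The order of sites within a chain was alike in the replicates. In 1115 chains every site had a peak in both replicates, and in 994 of them (89.1%, 95% Wilson interval 87.2% to 90.8%) the strongest site of replicate 1 was also the strongest of replicate 2. Wilson intervals here cover counting error only. The IDR threshold picks peaks by their agreement between these same 2 replicates. How much of the shared order follows from that choice, and from keeping only chains with every site in both, was not tested. In the 703 such chains of 4, the sites were ranked 1 to 4 by replicate 1. Their median signals were 151, 66.6, 26.9 and 15.7 in replicate 2, which took part in the choice of sites but not in this ranking. The CTCF motif was found at 69.7%, 60.3%, 47.9% and 40.5% of the sites of those ranks, and a promoter at 19.5%, 16.6%, 22.8% and 23.3%. The stronger sites of a chain thus carried the motif more often, while promoter shares did not follow the rank. The strongest site stood at an end of the chain in 405 of 820 chains of 4 (49.4%), where equal positions would give 50%. Neighbours within chains had weakly related pooled signals, with a Spearman correlation of 0.12 over 5045 pairs, against 0.063 over 59667 other neighbouring pairs, which is given as a description because the pairs share libraries.

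**Figure D3:**
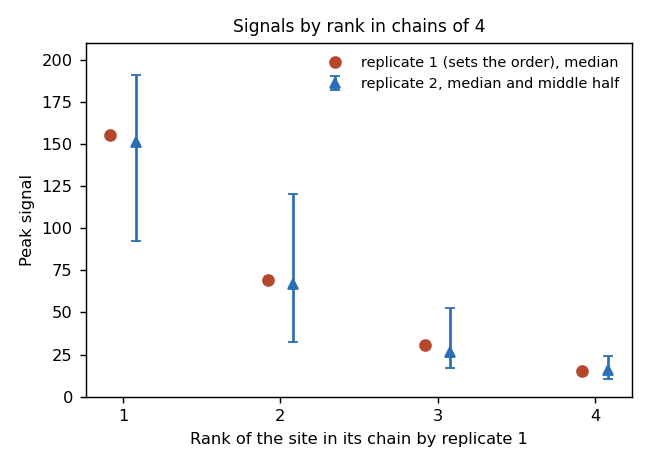
Median peak signal of sites in 703 chains of 4 sites (y axis, authors' units) by their rank in replicate 1 (x axis). Circles are replicate 1, which set the order, and triangles are replicate 2 with its middle 50% of chains as bars. Replicate 2 medians were 151 at rank 1 and 15.7 at rank 4.

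Chain sites did not stand apart in strength. Their median signal was 40.75 in replicate 1 and 38.1 in replicate 2, against 40.79 in replicate 1 and 37.4 in replicate 2 at the other 58325 sites. In the pooled list the median log2 signal of chain sites minus that of other sites was -0.048, and it took either sign under the alternatives tried. Chain sites were seen in both replicates at 95.1%, against 97.8% at other sites and 97.5% at all sites. Of chain sites 85.7% were in the conservative list, against 87.5% of other sites and 87.4% of all. Among chain sites within 500 bp of another site, 76.8% had a peak in both replicates and 69.2% were in the conservative list. The soft-masked share, which marks repeats in the reference, was 19.4% of chain sites, 19.5% of other sites and 19.5% of all.

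Chain sites carried the CTCF core less often than other sites. The core was present at 2731 of 6407 chain sites (42.6%, Wilson interval 41.4% to 43.8%), against 48.9% of other sites (48.5% to 49.3%) and 48.3% of all sites. The share was 50.5% for sites that stood alone, 46.8% in pairs, 46.2% in chains of 3, 43.7% in chains of 4, 41.4% in chains of 5, 43.0% in chains of 6 or 7 and 37.9% in chains of 8 or more. The motif matrix gave 50.4% of chain sites, 58.3% of other sites and 57.5% of all. It was made from other sites that had the core, so it is not independent of the core. Both measures can miss sites whose motif diverges. In each of 4 equal groups of all sites by pooled signal the chain sites had the lower core share, 21.6% against 30.5% in the lowest and 68.7% against 70.3% in the highest. With promoters left out the core was at 49.2% of chain sites and 54.1% of other sites, and at promoters at 20.2% and 20.6%. In 76 chains every site had the core, and in 173 none had. By the matrix 137 chains had the motif at every site and 114 at none. Sites of 1 library are not replicates, so these shares are set side by side without a test.

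Chain sites lay at promoters more often than other sites in the full list. A summit within 1000 bp of the start (TSS) of a protein-coding transcript was counted as a promoter site, and 1454 chain sites met this (22.7%, 21.7% to 23.7%), against 15.5% of other sites and 16.2% of all. The share was 11.8% for sites that stood alone, 20.1% in pairs and 22.9% in chains of 3, so chains of 4 or more had about the share of chains of 3. Among the 50% of sites with the highest pooled signal, chained in the same way, the share was 12.8% of 833 sites in chains and 13.2% outside. The higher share of the full list was thus not seen there. Chain sites within 500 bp of another site were at promoters at 42.4%, and those farther away at 19.99%. A further 36.8% of chain sites were intronic, against 43.9% of other sites, and 3.51% were in coding exons, against 2.19%. The GC content of the 301 bp around the summit had a median of 52.2% in chain sites and 48.5% in other sites. With promoters left out the medians were 50.5% in chain sites and 47.2% in other sites. Of 1362 chains, 755 (55.4%, 52.8% to 58.1%) had a protein-coding TSS within 1000 bp of their span, 160 had those of 2 or more genes, and 198 overlapped no gene at all. A long span meets a TSS more easily than a single summit. No share was counted for other spans of such length.

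**Figure D4:**
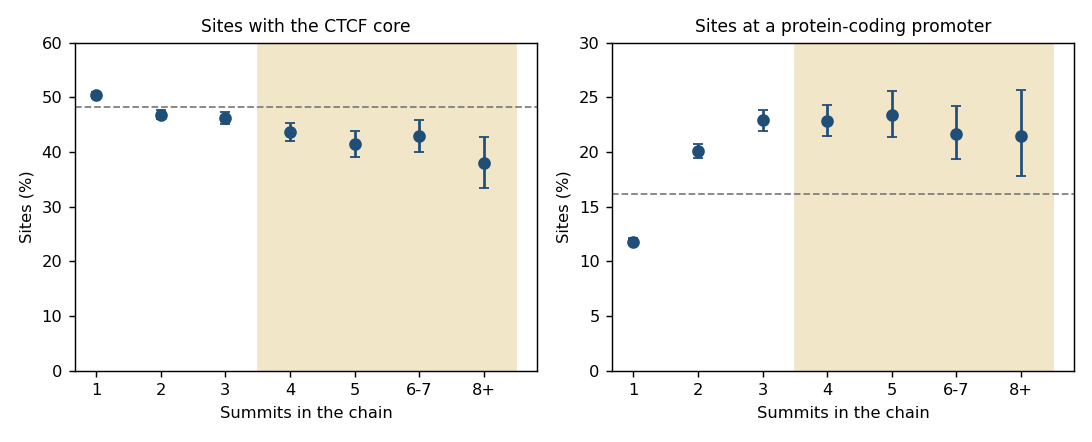
Percent of sites with the CTCF core (left) and at a protein-coding promoter (right) by the number of summits in the chain (x axis). Points are shares with 95% Wilson intervals, the shaded classes are chains of 4 or more, and dashed lines are all sites, 48.3% and 16.2%. The core share was 50.5% for sites alone and 37.9% in chains of 8 or more.

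The shares of neighbouring motifs in chains that were on the same strand or faced each other were both close to those of other neighbours at similar distance. Among 1037 neighbouring pairs in chains with an oriented core at both sites, 581 (56.0%, 53.0% to 59.0%) were on the same strand, against 52.5% of 14677 other neighbouring pairs (51.7% to 53.3%) and 52.8% of all. Other neighbours at most 5000 bp apart, those of pairs and chains of 3, gave 53.8% (52.0% to 55.6%), and the interval of the chains overlaps those of both sets. Facing cores made up 17.5% of chain pairs, 19.5% of other pairs at most 5000 bp apart and 21.7% of all other pairs. Most of all other pairs were over 5000 bp apart, and among those 22.3% faced each other. Cores that pointed apart made up 26.5% of chain pairs, 26.7% of other pairs at most 5000 bp apart and 25.7% of all other pairs. No intervals were computed for these shares. With the matrix, 55.5% of 1464 chain pairs were on the same strand, against 52.6% of 21251 other pairs, again with overlapping intervals. Facing motifs by the matrix made up 18.4% of chain pairs and 22.1% of other pairs at any distance. Of 431 chains with 3 or more oriented cores, 101 had all of them on 1 strand, and no such share was counted outside chains.

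The most common core sequence in chains was a repeat form. CCAGAAGAGGGC was the core at 616 chain sites in 473 chains (22.9% of 2693 oriented cores), against 19.1% of 28220 oriented cores of other sites. Of these 616 sites 94.3% were soft-masked, against 92.5% of the 5392 other sites with that core, and their median pooled signal was 54.0, against 50.7. CCACCAGGGGGC, the core of 85 chain sites in 77 chains, was soft-masked at 4.71% of them, with a median pooled signal of 346 in chain sites and 293 in other sites.

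Repeated sequence between sites of a chain was rare outside Firre. In chains of 4 or more, 124 of 12706 pairs of sites (0.976%) reached an alignment score of 80, and 72 of those pairs were in Firre. Without the Firre chains, 52 of 12495 pairs did (0.416%), against 0.472% of 7834 pairs in chains of 2 and 0.478% of 7119 pairs in chains of 3. These 52 pairs lay in 44 of 1360 chains. One of them, named after its values were seen, had 4 sites between Klhl9 and the type I interferon gene Ifnz (chr4:88754838-88763594), and all 4 aligned to another, the best pair at 97.7% identity.

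Chain spans also held further motifs and weaker peaks. Cores with at most 1 mismatch that lay over 50 bp from a listed summit occurred 131 times per Mb of chain span, against 71.3 times per Mb of the rest of the chromosomes. Pooled peaks that the IDR list did not include were at 316 per Mb in chain spans, against 90.9 per Mb elsewhere. The chain of 11 sites between Pcdh15 and Rsph14 (chr10:74921090-74940988), in which 6 sites had the motif, had 28 cores in its span, of which 21 were not at a listed site. Its signals ran from 10.9 to 223 with a median of 61.6 in replicate 1, and from 10.5 to 227 with a median of 46.1 in replicate 2.

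The other long chains lay at genes. The chain of 13 sites over 24089 bp at Sox18, an endothelial transcription factor, and Tcea2, a transcription elongation factor, had its strongest site at 246 in replicate 1 and 238 in replicate 2 between genes. Its 2 promoter sites had 23.6 and 8.97 in replicate 1 and 26.7 and 9.79 in replicate 2, well below. The chain of 12 sites at Slc29a1, a nucleoside transporter, had 5 promoter sites, of which 1 was strong, at 159 in replicate 1 and 145 in replicate 2. Its strongest site, at 209 and 196 in replicates 1 and 2, was intergenic.

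Chains of 11 sites lay at Fstl3, an activin-binding protein, with Palm and Prss57, and at Dpf1, a chromatin remodelling subunit, with Spint2 and Ppp1r14a. At Fstl3 the signals ran from 9.43 to 202 in replicate 1 and from 4.23 to 222 in replicate 2. At Dpf1 they ran from 8.42 to 170.5 in replicate 1 and from 6.41 to 173 in replicate 2. Both thus held strong and weak sites side by side, as most chains did. Chains of 10 sites lay at Ptma, which encodes prothymosin alpha, at the edge of Arhgef19, with 1 intronic and 9 intergenic sites and the motif at 8 of 10, and at Lyl1, a blood transcription factor, with Trmt1 and Nfix. The fifth chain of 10 sites, in Zmiz1, had the lowest summed pooled signal of the 5 and fell outside the 10 named for most sites by that tie rule. It was named after its values were seen.

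By median pooled signal, 4 chains followed the one at Fbln2. Clip2, a microtubule linker, had 5 sites with the motif at all 5, at 208, 81.2, 92.8, 230.3 and 221 in replicate 1 and 207, 84.8, 81.7, 222 and 221 in replicate 2. In Vwf, which encodes the von Willebrand factor made by endothelium and platelets, 3 sites had 201, 222 and 221 in replicate 1 and 199, 204 and 227 in replicate 2. The remaining 2 sites in Vwf were at or below 25.8 in either replicate, and its 3 motifs were all on the minus strand. Crocc, the ciliary rootlet gene, had 3 sites at 191 or above and 2 at 16.7 or below in both replicates, and 3 of the 5 were in the conservative list. A chain between Cd82 and Alx4 (chr2:93469331-93477748) had 4 sites from 112 to 208 in replicate 1 and from 101 to 212 in replicate 2.

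The densest chain was weak. Fzd4, a Wnt receptor with a part in vessel growth, had 4 sites in 1050 bp at its promoter, none with the motif. Its sites had 15.2 and 19.5 in replicate 1, with no peak within 100 bp at the other 2, and 26.3, 7.57 and 18.7 in replicate 2, with none at the fourth. With close sites dropped 2 sites were left at Fzd4, and 2 likewise at Dnah2, a ciliary dynein gene with 4 sites in 1138 bp of its introns. Such summits may share reads, and whether they are separate binding events cannot be told from the lists. Another dense chain, 17864 bp from Mbd2, a methyl-CpG binding protein gene, had 4 sites in 1120 bp. Its last site had 128 in replicate 1 and 139.6 in replicate 2, the other 3 were at 13.2 or below, and the conservative list kept 1 of the 4.

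Genes that mark the lung's cell types were among those with chains. Of 21728 protein-coding genes, 943 (4.34%) had a TSS within 1000 bp of a chain. The lung epithelium list had 3 of 32, Elf3, Id2 and Nkx2-1, the mesenchyme list 4 of 25, Col1a1, Foxf1, Gli1 and Pdgfra, and the endothelium list 2 of 20, Esam and Sox18. The blood and immune list and the neuron list had 0 of 20 each. The interval of the mesenchyme list, 6.40% to 34.7%, lay above 4.34%, and those of the epithelium (3.24% to 24.2%) and endothelium (2.79% to 30.1%) held it, as did that of a list at 0 of 20, which runs up to 16.1%. The gene lists were chosen with earlier results of these data known, and their intervals make no allowance for the number of lists. A chain at a gene is a position, and the peak lists hold no expression.

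Pdgfra, the receptor of mesenchymal progenitors, had a chain with 9 sites over 13865 bp (chr5:75143397-75157262). In genome order they had 109, 24.0, 15.8, 9.78, 139, 19.998, 136, 147 and 164 in replicate 1, and 91.4, 21.1, 25.2, 13.4, 116, 31.3, 142, 157 and 165 in replicate 2. The first, the fifth and the last 3 sites were at 91.4 or above and the others at 31.3 or below in both replicates. The last 5 sites were at the promoter, and the chain had 2 motifs on the plus and 3 on the minus strand.

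At Nkx2-1, Id2, Foxf1, Elf3 and Gli1, 1 or 2 sites carried most of the signal, and at Esam the strongest site held 30.6% of the pooled sum. Leading sites were common in chains, where the strongest held a median of 46.5%. At Nkx2-1, the transcription factor of lung and thyroid identity, the 4 sites had 6.45, 14.6, 119.8 and 30.5 in replicate 1 and 13.5, 4.35, 123 and 23.9 in replicate 2, and the third, in a non-coding exon, was the highest in both. The conservative list kept 2 of these 4 sites. At Id2, an inhibitor of bHLH factors found in distal airway tips, the first site had 243 in replicate 1 and 259 in replicate 2, and the other 4 at most 34.2 in replicate 1 and 36.8 in replicate 2. At Foxf1, a transcription factor of lung mesenchyme, the fifth site, in a UTR, had 181 in replicate 1 and 188 in replicate 2, the fourth 46.3 and 45.7, and the first 3 at most 14.1 and 14.9. The conservative list kept 3 of these 5 sites. Elf3, an epithelial Ets factor, had its highest of 5 sites at the promoter, 175 in replicate 1 and 139 in replicate 2. Gli1, a hedgehog effector, had 2 promoter sites at 201 and 184 in replicate 1 and 173 and 187 in replicate 2, above its 3 intronic sites at 32.5 or below. The 5 sites of Esam, an endothelial adhesion molecule, ran from 22.3 to 118 in replicate 1 and from 18.0 to 77.4 in replicate 2.

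Other gene lists varied around the share of all genes. Ribosomal protein genes had 10 of 79 (12.7%, 7.02% to 21.8%), imprinted genes 5 of 44, forkhead genes 5 of 44, cell cycle genes 4 of 32, Hox genes 4 of 39, Sox genes 2 of 19 and clustered protocadherins 4 of 56. Homeobox genes other than Hox had 5 of 106, Wnt, Fgf, Bmp and hedgehog ligands 2 of 55, the cohesin and architectural list 1 of 28 (Ldb1, a looping cofactor) and C2H2 zinc finger genes 11 of 365. Olfactory receptors had 0 of 1092, with an upper limit of 0.351%, replication-dependent histones 0 of 68, keratins 0 of 49, T-box genes 0 of 15 and GATA genes 0 of 6. The intervals of the mesenchyme, imprinted, cell cycle, ribosomal and forkhead lists lay above 4.34% and that of the olfactory receptors below it. The lower limits of the imprinted and forkhead lists, 4.95% each, and of the cell cycle list, 4.97%, were just above 4.34%. The intervals make no allowance for the number of lists, and no list was tested. Neighbouring genes of a list can share a chain, as Hoxd9 and Hoxd10 did, so the intervals understate the error.

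**Figure D5:**
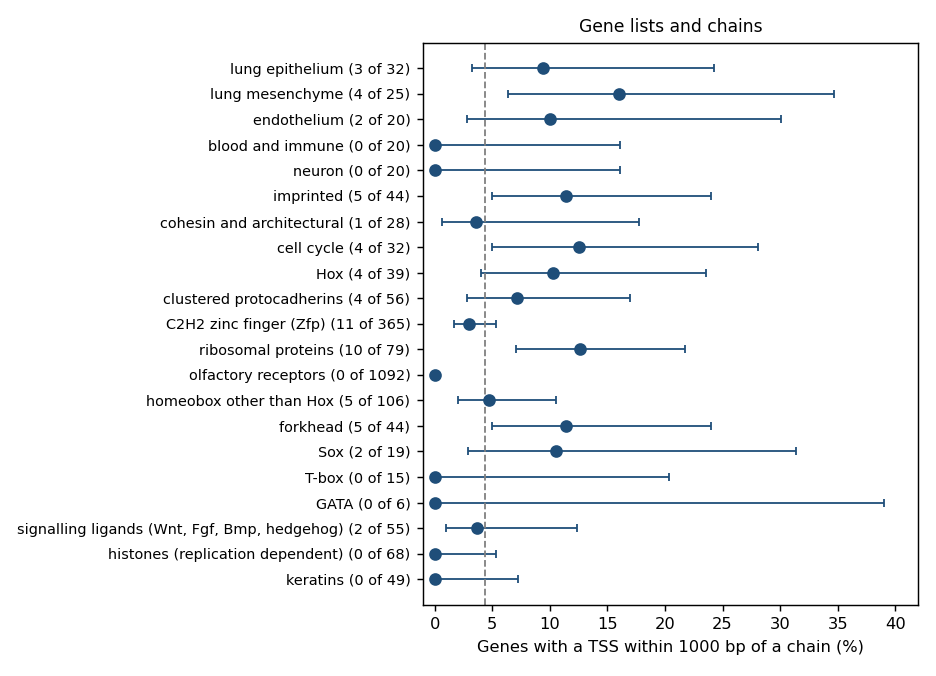
Percent of the genes of each list with a TSS within 1000 bp of a chain (points, with 95% Wilson intervals). The dashed line is the share of all protein-coding genes, 4.34%. Mesenchyme, with 4 of 25 genes, had the highest share, and 7 lists had no gene with a chain.

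Within these lists, Rpl3, a protein of the large ribosomal subunit, had a chain of 7 sites with the motif at 6, 5 of them on the minus strand, and signals from 8.42 to 189 in replicate 1 and 9.76 to 179.6 in replicate 2. Irx5, a homeobox factor, had 7 sites without a dominant one, from 25.3 to 80.1 in replicate 1 and from 17.1 to 83.6 in replicate 2. Zfp503, a zinc finger repressor, had 8 sites and none with the motif, and its strongest site still had 199 in replicate 1 and 179 in replicate 2. At Trp53, which encodes the p53 tumour suppressor and shares its promoter region with Wrap53, a promoter site had 264 in replicate 1 and 249.8 in replicate 2, above the other 3 at 110.0 or below. Ccnd1, which encodes cyclin D1, had an intronic site at 231 in replicate 1 and 226 in replicate 2 and 5 others at 92.6 or below.

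Of the multigene loci, some had sites and no chain. The Hoxa cluster had 10 sites, Hoxc 5, the Dlk1-Meg3 region 3 and Gnas 8, none of them in a chain. Over all chromosomes 6407 of 64732 sites were in chains, and no locus here or below was tested against that share. Hoxb had 4 of 18 sites in 1 chain from Hoxb6 to Hoxb5, at 134, 25.3, 11.0 and 187 in replicate 1 and 121, 17.0, 16.3 and 178 in replicate 2, the 2 end sites above the inner ones. Hoxd had 4 of 7 in a chain at Hoxd9 and Hoxd10, at 53.7, 45.0, 28.0 and 171 in replicate 1 and 41.7, 40.03, 11.5 and 157 in replicate 2, the last site, intergenic, above the rest. The Kcnq1-Cdkn1c region had 2 chains. The one at Cdkn1c, a maternally expressed cell cycle inhibitor, had a weak promoter site at 13.1 in replicate 1 and 11.4 in replicate 2 and 3 intergenic sites between 149 and 216, all with motifs on the minus strand. The one at Kcnq1, a potassium channel gene, had 5 sites at 76.1 or below in replicate 1 and 88.1 or below in replicate 2. Peg3, a paternally expressed zinc finger gene that shares its promoter region with Usp29, had 4 sites in 2924 bp, from 29.2 to 58.5 in replicate 1 and from 25.5 to 60.1 in replicate 2, with the motif at 3.

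The clustered protocadherins, cell surface proteins whose variable exons each have a promoter with a CTCF site, had 51 sites and 1 chain, of 4 sites. These lay at the promoters of Pcdhgb6, Pcdhga10, Pcdhgb7 and Pcdhga11, 4153 to 4927 bp apart, just under the joining distance. They had 104, 35.6, 90.9 and 77.1 in replicate 1 and 83.0, 52.7, 86.9 and 58.4 in replicate 2, none with the motif by the matrix, and the third and the first were highest in both.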

How the data were processed

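Peak lists of CTCF ChIP-seq on mm10, per the labels, were used as deposited. Per the deposited file descriptions, each replicate's list came from its alignments and 1 further file, the pooled list from the alignments of the pair, and both IDR lists from these. Aligner, peak caller, signal scaling and IDR cutoff: not given in the sources used here. Each peak has a signal, deposited by the authors without a stated unit, and a deposited −log10 q-value, which selected nothing here. Depth is unknown, because the lists carry no read counts.

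The rule for members, the gene lists and the rule for named chains were chosen with earlier results of these data known. Named were the 10 chains with most sites, the 5 of highest median pooled signal, the 3 with most sites per kb, chains in imprinted, Hox and protocadherin loci, and up to 3 members per gene list. Predicted gene names were left out. The genome was GRCm38.p6 (RefSeq), and genes were those of GENCODE M21. The core was searched on both strands within 50 bp of the summit. Python 3.11.15, pandas 2.3.3, SciPy 1.17.1 and Biopython 1.88 were used. The steps were tested on simulated data. Both replicates form 1 group, so no comparison between samples was made, and chain and other sites were described without a test. Alternatives were other joining distances, lists, close-site and signal filters, each replicate alone, and motif and promoter settings. The matrix, the alignments and leaving promoters out were chosen after seeing the data.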

Additional observations from a re-analysis of the deposited data

Results flagged for a closer look

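Some peaks of the pooled list that the authors' IDR lists leave out carried the motif in chain spans, at a lower share than elsewhere. Of 3403 such peaks over 300 bp from a listed site, 276 (8.11%, Wilson interval 7.24% to 9.08%) passed the matrix score, against 9.80% of 231177 unlisted peaks elsewhere and 1.00% of windows 1000 bp from sites that stand alone. The value was singled out because these peaks take no part in the comparisons of chain sites and exceed the share in flank windows. That flank share was fixed in advance, because the threshold was set on those windows.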

How the results depend on the processing

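No paired analysis was possible because both replicates belong to 1 group. With a joining distance of 2500 bp there were 415 chains of 1844 sites, with a median length of 4128 bp, the core at 36.6% and a promoter at 29.6% of their sites, and a coding TSS at 58.8% of chains. With 10000 bp there were 3231 chains of 17127 sites, and the values were 15394 bp, 46.2%, 20.1% and 61.4%. The 50% of sites with the highest pooled signal gave 188 chains of 833 sites, with the core at 59.7%, a promoter at 12.8%, a TSS at 38.3% of chains and 62.7% of neighbouring cores on the same strand. Dropping close sites gave a length of 8134 bp, the core at 44.6% and a promoter at 20.5%. The core share was 10.9% with no mismatch, 44.1% within 100 bp, 50.4% by the matrix and 49.2% without promoters, and the same-strand share was 60.5% with no mismatch. The promoter share was 15.9% within 500 bp and 49.8% within 5000 bp, and 49.9% of chains had a TSS inside. The median log2 signal of chain sites minus other sites was -0.048, with -0.14 at 2500 bp, 0.0055 at 10000 bp, -0.060 in the conservative list, 0.077 with close sites dropped, 0.12 in the strongest sites and 0.10 without promoters. It was -0.011 and -0.0088 with replicates 2 and 1 alone. For each replicate alone, its peaks of highest signal were taken, up to the 64732 of the optimal list. The number of sites was thus set in advance, so similar counts of chains do not measure agreement in that number. Leaving out a replicate gave 1348 to 1371 chains, 6320 to 6419 sites, lengths of 7602 to 7798 bp, the core at 42.1% to 42.4%, a promoter at 22.9% to 23.0%, 55.7% to 56.0% on the same strand and a TSS at 55.3% to 56.4%. The core share was below that of other sites under every setting tried. Of 98 alternative site counts of named chains, 8 moved by over 1.5 times. No cause was tested for any of these.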
